A study of Arabidopsis thaliana with 12 samples.

Results

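A set of 10 genes of zinc transport, out of 25941 genes measured in Arabidopsis thaliana, was followed across 4 groups of root libraries. The set was drawn up by gene name, with earlier results of these data known, so its counts do not come from a blind choice. It comprises the transporters ZIP1, ZIP2, ZIP3, ZIP4, ZIP5 and ZIP9, the zinc-pumping ATPases HMA2 and HMA4, the metal tolerance protein MTP2 and the transcription factor bZIP19. All 10 were found in the table by their gene identifiers, and 9 of them, all but MTP2, had a mean of at least 1 RPKM (reads scaled to exon length and library depth) over the libraries and were tested.

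Plants take zinc up from the soil and move it between cells through ZIP proteins, which carry divalent metals into the cytosol. HMA2 and HMA4 pump zinc out of cells around the root vessels and so load it into the xylem for the shoot, and MTP2 carries zinc into the endoplasmic reticulum of root cells. The factor bZIP19 senses zinc together with its near copy bZIP23, and when zinc is short both switch on their targets, several ZIP genes among them, through a palindrome called the zinc deficiency response element (ZDRE).

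RNA sequencing was done on roots of plants grown for 10 d on solid medium. Wild type (WT) was the accession Columbia-0, and OX3 was 1 transgenic line of the same species that overexpresses GmVP2, a soybean gene. Both were given either 1250 µM phosphate (normal) or 6.25 µM phosphate (low), which made 4 groups of 3 libraries each. The sources used here do not name the promoter of the transgene, and the level of GmVP2 was not analysed here. The comparisons were low against normal phosphate in each line, OX3 against WT at each phosphate level, and the difference between the lines in their response to low phosphate. The labels name no difference in zinc supply between the groups.

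Between 17670350 and 20418541 reads lay behind each library, as recovered from the RPKM values. Root markers were detected in all 12 libraries: none of the 4 epidermal, 4 endodermal and 4 stele markers was at 0 in any of them. At low phosphate 3 of 4 epidermal and 3 of 3 tested endodermal markers rose in both lines, beside 24.3% of all tested genes in WT and 23.3% in OX3. Endodermal sums were 89.4 to 123 RPKM at normal and 130 to 150 RPKM at low phosphate in WT. ESB1, the endodermal marker below the filter, went from 0.248 to 0.139 RPKM in WT and from 0.218 to 0.084 RPKM in OX3. Of the 4 stele markers 1 rose and 2 fell in WT, and 2 rose and 2 fell in OX3. Markers of shoot photosynthesis were also present. Their summed level, over 6 genes, ran from 404.8 to 466.6 RPKM in WT at normal phosphate, from 627.8 to 656.8 in OX3 at normal phosphate, from 158.7 to 188.7 in WT at low phosphate and from 183.4 to 218.2 in OX3 at low phosphate. RBCS2B alone of these 6 was at 0 in some libraries. Of the 5 photosynthesis markers tested, 4 fell at low phosphate in either line, beside 21.6% of all tested genes in WT and 23.8% in OX3. At normal phosphate 4 of the 5 were higher in OX3 than in WT, beside 1.37% of all tested genes. The part of these markers in the results on zinc genes was not tested.

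The DNA around the gene starts was read first, because the ZDRE is the site through which bZIP19 acts. In RefSeq's TAIR10.1 assembly, 1500 bases before and 300 bases into each of 27440 protein-coding genes were searched on both strands. The full ZDRE lay in this window of 144 genes, or 0.525%, and 3 of the 10 members carried it, namely ZIP3, ZIP4 and ZIP5. The window was set after the positions of matches were seen, and several ZIP genes are known targets of bZIP19. The member count is therefore a description and no test of enrichment. The sites are shown with 10 flanking bases on each side, on the strand of the gene, with the ZDRE in capitals, since ZIP3 and ZIP5 moved in opposite directions below.
ZIP3 (chr2:13702702-13702731, plus strand): cgtacattttATGTCGACATtctttcgcca
ZIP5 (chr1:1548662-1548691, minus strand): cgtacaatttATGTCGACATtctctcgaca
ZIP4, upstream (chr1:3667160-3667189, minus strand): taacgcgaaaATGTCGACATatttggctaa
ZIP4, within the gene (chr1:3667032-3667061, minus strand): agtccatagaATGTCGACACtctttcactc
The ZIP3 site starts 1356 bases before the gene and the ZIP5 site 832 bases before it, and these stretches were identical at 27 of 30 bases. The ZDRE itself was what the search matched, and of the 20 flanking bases 17 were identical. ZIP4 had 1 site 40 bases before its start and another 89 bases into the gene, in exon sequence outside the coding part.

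A shorter core, TGNCGACA, which every ZDRE contains, was present in 9.28% of all genes and in 5 of the 10 members. It added ZIP1 and ZIP9, whose matches are shown with the core in capitals.
ZIP1 (chr3:4053835-4053862, minus strand): catagtaacaTGACGACAttctgtcttc
ZIP9 (chr4:15934828-15934855, minus strand): tagatgaaaaTGACGACAttctatggtc
The phosphate-response motif known as P1BS, GNATATNC, was searched in the same windows, because it is bound by the factor PHR1 of the phosphate starvation response. It was present in 32.0% of all genes and in 4 of the 10 members, ZIP2, ZIP4, ZIP9 and HMA2. HMA4, MTP2 and bZIP19 held none of these letters in the window. A match describes the letters only.

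At low phosphate most of the zinc transport genes changed, and they changed in both directions. In WT, 6 of the 9 tested members fell and 2 rose by limma at a Benjamini-Hochberg adjusted p below 0.05 over all genes. Low phosphate moved 46.0% of all 18910 tested genes in WT, 21.6% down and 24.3% up. In OX3, 6 members fell and 3 rose, against 23.8% and 23.3% of all genes and 47.0% in either direction. In both lines the libraries of the 2 phosphate levels did not overlap for all 9 tested members, 3 higher and 6 lower, beside 53.0% of all genes in WT (27.8% higher, 25.2% lower) and 57.4% in OX3 (27.6% higher, 29.8% lower). The median log2 difference of the 9 members was -0.57 in WT and -0.58 in OX3, beside 0.02 and -0.02 over all tested genes. Both lines are given side by side below, with differences on the log2(RPKM + 1) scale, which understates the change of low genes.

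**Figure D1:**
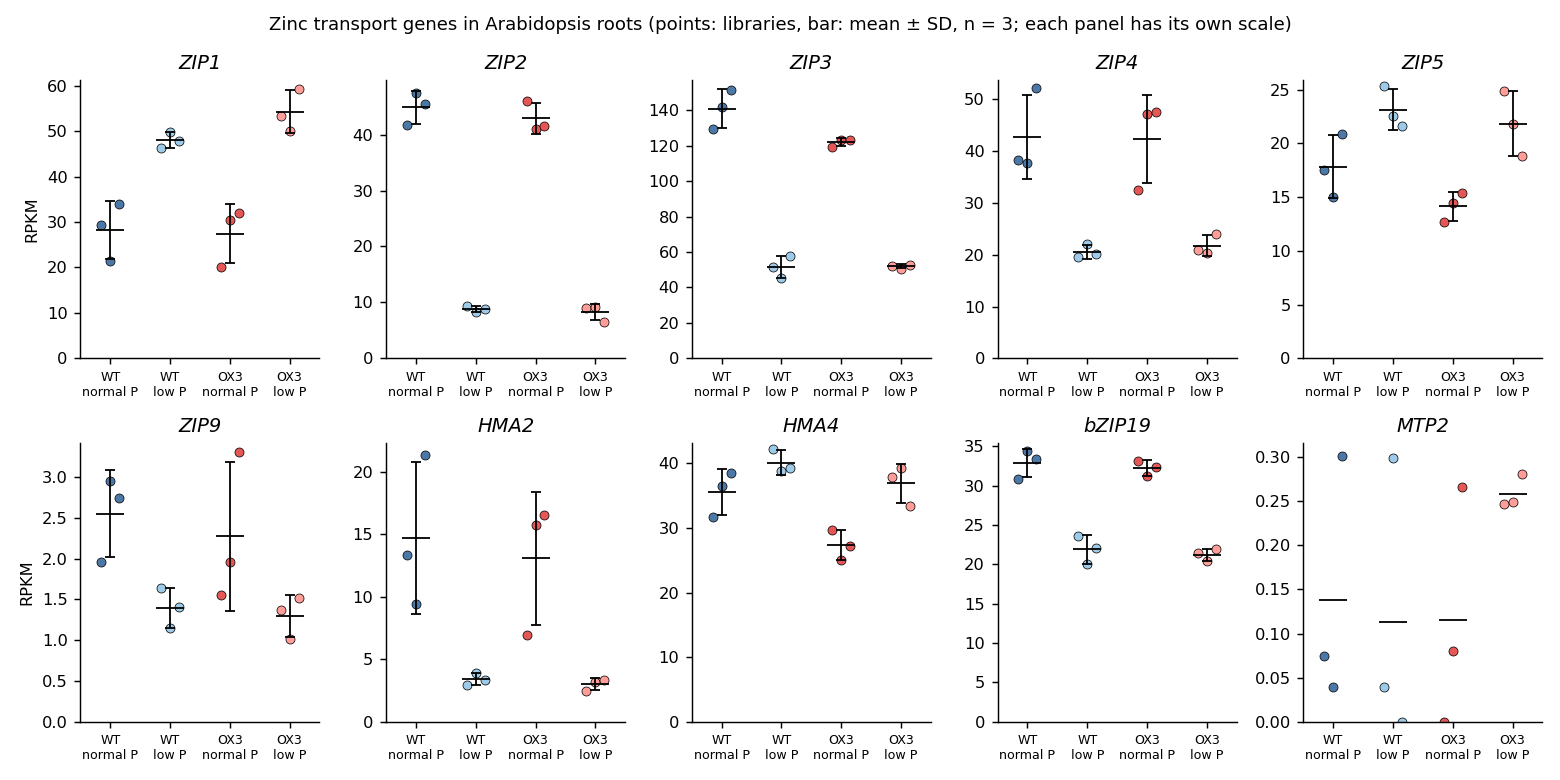
RPKM of each zinc transport gene (vertical axis, a scale of its own in each panel) in the 12 root libraries by group. Points are libraries and bars show the mean ± SD (n = 3; mean only for MTP2). ZIP2, ZIP3, ZIP4, HMA2 and bZIP19 sit lower at low phosphate in both lines, while ZIP1 and ZIP5 sit higher.

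ZIP2 (AT5G59520, chr5:23991213-23992908, minus strand), a plasma membrane transporter placed in the root stele, showed the largest fall of the 9 tested members in both lines. Its level was 41.7, 47.3 and 45.5 RPKM in WT at normal phosphate and 9.30, 8.23 and 8.91 RPKM at low phosphate. In OX3 it was 46.1, 41.0 and 41.6 RPKM at normal and 8.97, 9.20 and 6.56 RPKM at low phosphate. No library at one phosphate level came near any library at the other. The group means dropped 5.09-fold in WT, a log2 difference of -2.22 ± 0.10 (SE, limma adjusted p = 2.7e-10), and 5.20-fold in OX3, a log2 difference of -2.26 ± 0.10 (adjusted p = 2.35e-10). A bulk root library cannot tell fewer cells of a type from less RNA in each cell. Of the 4 stele markers 2 fell and 1 rose in WT, with a summed level of 129.4 to 145.3 RPKM at normal and 132.4 to 136.7 RPKM at low phosphate. Most of this sum was PHO1, with WT means of 90.8 and 94.9 RPKM. In WT SKOR went from 3.63 to 0.489 RPKM, AHK4 from 27.2 to 20.7 RPKM and SHR from 14.5 to 18.5 RPKM. In OX3 2 stele markers rose and 2 fell. The part of these markers in the fall of ZIP2 was not tested.

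ZIP3 (AT2G32270, chr2:13704068-13706928, plus strand), a zinc uptake transporter and known target of bZIP19, was the most abundant member at normal phosphate. The WT libraries held 129, 142 and 151 RPKM at normal and 51.7, 45.3 and 58.0 RPKM at low phosphate. In OX3 the values were 119, 123 and 123 RPKM at normal and 52.3, 50.7 and 52.8 RPKM at low phosphate. The groups lay far apart, with a log2 difference of -1.43 ± 0.08 in WT (adjusted p = 1.85e-09) and -1.22 ± 0.08 in OX3 (adjusted p = 1.04e-08).

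ZIP4 (AT1G10970, chr1:3665087-3667139, minus strand), which carries 2 full ZDREs, also fell. WT held 38.3, 37.7 and 52.1 RPKM at normal phosphate, and 19.5, 22.1 and 20.2 RPKM at low phosphate. OX3 held 32.5, 47.1 and 47.5 RPKM at normal, and 20.9, 20.4 and 24.1 RPKM at low phosphate. The libraries at normal phosphate were spread widely and those at low phosphate narrowly, with no overlap between them. The group means dropped 2.08-fold in WT (adjusted p = 3.31e-05), and the log2 difference was -0.91 ± 0.14 (SE) in OX3 (adjusted p = 8.26e-05).

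ZIP9 (AT4G33020, chr4:15932420-15934762, minus strand) was the lowest ZIP of the set, resting on 28 to 99 reads per library. It read 1.96, 2.96 and 2.75 RPKM in WT at normal phosphate and 1.64, 1.15 and 1.41 RPKM at low phosphate. OX3 read 1.56, 1.95 and 3.30 RPKM at normal and 1.37, 1.02 and 1.51 RPKM at low phosphate. In each line the highest low-phosphate library lay just under the lowest normal one. The log2 difference was -0.56 ± 0.18 in WT (adjusted p = 0.0183) and -0.48 ± 0.18 in OX3 (adjusted p = 0.0386). These adjusted p-values were the largest among the 6 falling members in each line. The fall itself was not the smallest by group means. The means of ZIP9 dropped 1.827-fold in WT and 1.749-fold in OX3, more than those of bZIP19 in both lines. The call in WT was lost without WT normal replicate 3 (adjusted p = 0.0725) or 4 (0.059) or WT low replicate 3 (0.0662). The call in OX3 was lost without any single OX3 library other than normal replicate 2 or low replicate 4, and the difference shrank to -0.26 without OX3 normal replicate 4 (adjusted p = 0.206). It was also lost with the replicate number as a block (0.0519) or with no filter (0.0629).

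ZIP1 (AT3G12750, chr3:4051651-4053201, minus strand), placed at the vacuolar membrane of root cells and a known bZIP19 target, went the other way. Its level was 29.2, 21.3 and 34.1 RPKM in WT at normal phosphate and 46.2, 49.7 and 47.9 RPKM at low phosphate. In OX3 it was 20.1, 30.4 and 31.9 RPKM at normal and 53.3, 50.01 and 59.3 RPKM at low phosphate. All 6 low-phosphate libraries were above all 6 normal ones. The log2 difference was 0.77 ± 0.16 in WT (adjusted p = 0.00123) and 0.98 ± 0.16 in OX3 (adjusted p = 1.65e-04). ZIP1 shares 125 of its bases with ALIS1 on the opposite strand, no source used here states whether counting used strand, and ALIS1 rose by 0.23 in WT and 0.33 in OX3.

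ZIP5 (AT1G05300, chr1:1544927-1547849, minus strand), whose ZDRE has the same letters as that of ZIP3, rose as well. WT held 17.6, 15.04 and 20.9 RPKM at normal phosphate and 25.3, 22.5 and 21.6 RPKM at low phosphate. OX3 held 12.7, 14.4 and 15.4 RPKM at normal and 24.8, 21.8 and 18.8 RPKM at low phosphate. In each line the groups did not overlap, although WT at normal and OX3 at low phosphate did. The log2 difference was 0.37 ± 0.12 in WT (adjusted p = 0.0178) and 0.58 ± 0.12 in OX3 (adjusted p = 7.75e-04). The call in WT was lost without WT normal replicate 3 (adjusted p = 0.0931) or WT low replicate 2 (0.0676). Thus among the 3 carriers of the full ZDRE, ZIP3 and ZIP4 fell and ZIP5 rose.

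**Figure D2:**
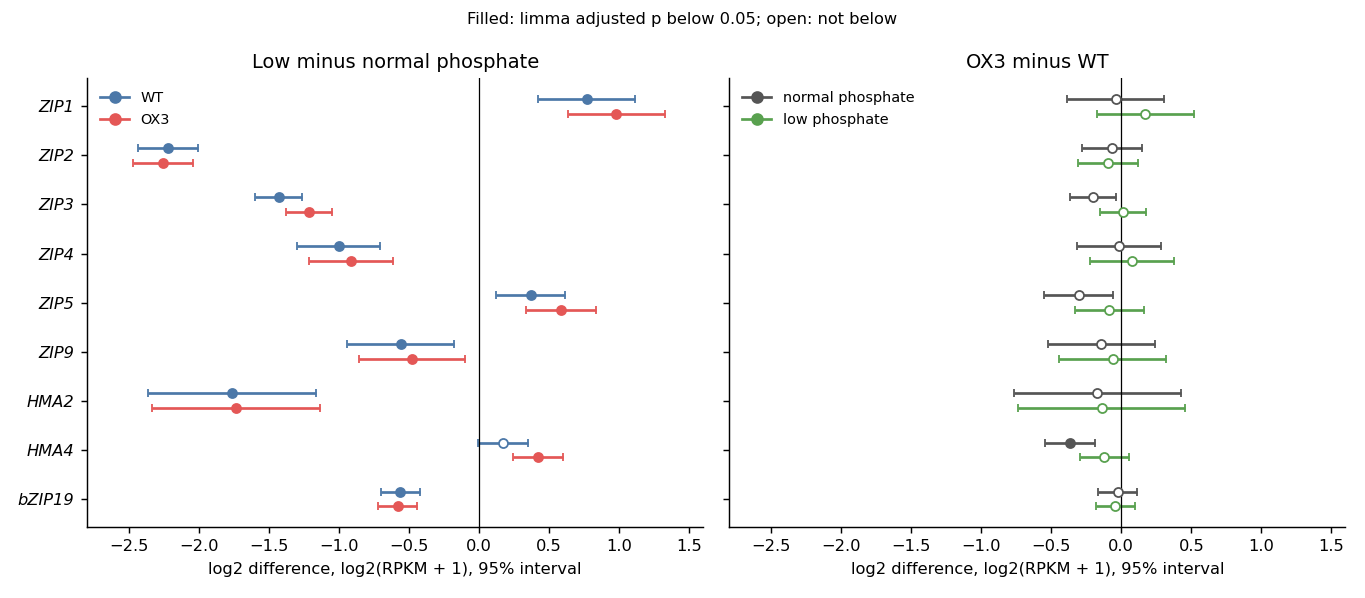
Log2 differences of the 9 tested zinc transport genes on the log2(RPKM + 1) scale (horizontal axis) with 95% intervals from limma; filled points have an adjusted p below 0.05. At left, low minus normal phosphate runs from -2.26 for ZIP2 to 0.98 for ZIP1; at right, OX3 minus WT is filled only for HMA4 at normal phosphate, at -0.37.

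With these shifts the make-up of the 6 ZIP genes changed. Their summed level was 277 ± 26.0 RPKM (SD, n = 3) in WT at normal phosphate and 154 ± 4.51 RPKM at low phosphate. In OX3 the sum was 251 ± 16.5 RPKM at normal and 159 ± 5.43 RPKM at low phosphate. ZIP3 made up 50.9% ± 2.12 of the WT sum at normal phosphate and 33.6% ± 3.15 at low phosphate, while ZIP1 went from 10.2% ± 1.86 to 31.3% ± 1.84. ZIP1 and ZIP3 therefore held similar shares at low phosphate, also in OX3, where ZIP1 made up 34.0% ± 2.07 and ZIP3 32.6% ± 0.423. ZIP2 went from 16.3% ± 1.46 to 5.74% ± 0.277 in WT. These shares describe the same values as the tests above and were not tested again.

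**Figure D3:**
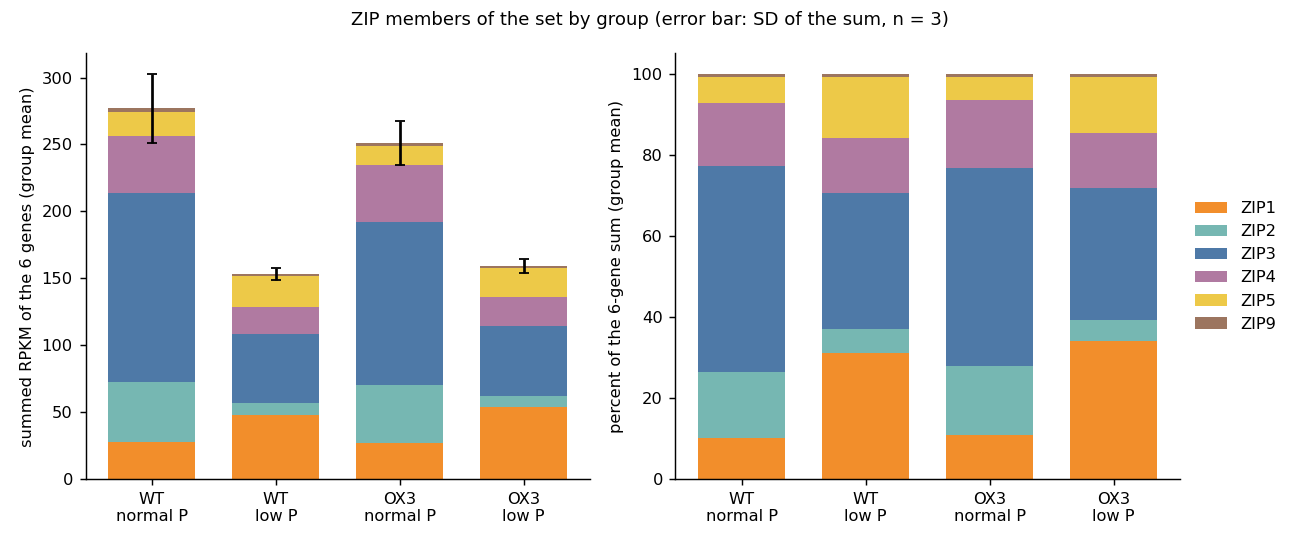
Summed RPKM of the 6 ZIP genes (left; error bar, SD of the sum, n = 3) and each gene's percent of that sum (right), as means of 3 libraries per group. The sum is lower at low phosphate, 154 against 277 RPKM in WT, and the ZIP1 share is larger, 31.3% against 10.2%.

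Of the xylem-loading ATPases, HMA2 fell and HMA4 did not. HMA2 (AT4G30110, chr4:14720062-14725311, minus strand) measured 13.4, 9.38 and 21.3 RPKM in WT at normal phosphate and 2.95, 3.92 and 3.35 RPKM at low phosphate. In OX3 it measured 6.97, 15.7 and 16.5 RPKM at normal and 2.45, 3.19 and 3.37 RPKM at low phosphate. Every normal-phosphate library exceeded every low-phosphate one, although the normal libraries differed among themselves up to 3.06-fold. The group means dropped 4.31-fold in WT (log2 difference -1.77 ± 0.28, adjusted p = 1.14e-04) and 4.35-fold in OX3 (-1.74 ± 0.28, adjusted p = 1.36e-04).

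HMA4 (AT2G19110, chr2:8278789-8286561, plus strand), with the same role, was higher at low phosphate in OX3. Its level there was 29.8, 25.1 and 27.1 RPKM at normal and 37.9, 39.3 and 33.4 RPKM at low phosphate, groups that did not overlap (log2 difference 0.42 ± 0.08, adjusted p = 7.84e-04). In WT it was 31.6, 36.6 and 38.5 RPKM at normal and 42.3, 38.8 and 39.3 RPKM at low phosphate. The WT groups nearly touched, and the difference of 0.17, with a 95% interval of -0.01 to 0.35, missed the threshold (adjusted p = 0.106). Whether OX3 responded more than WT was tested directly: the difference between the responses was 0.25, with a 95% interval of -0.00 to 0.50 (adjusted p = 0.702).

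The regulator bZIP19 (AT4G35040, chr4:16680209-16682881, plus strand) fell moderately, with little scatter. WT libraries held 30.9, 34.4 and 33.4 RPKM at normal and 23.6, 20.003 and 22.1 RPKM at low phosphate. OX3 libraries held 33.2, 31.2 and 32.4 RPKM at normal and 21.4, 20.4 and 21.9 RPKM at low phosphate. The 2 phosphate levels were fully separated in both lines, by -0.57 ± 0.06 in WT (adjusted p = 5.3e-06) and -0.58 ± 0.06 in OX3 (adjusted p = 4.09e-06). The gene shares 302 bases with MSI3 on the opposite strand, which differed by 0.01 in WT and -0.08 in OX3 (adjusted p = 0.963 and 0.391). Its near copy bZIP23, with group means of 6.12 to 7.39 RPKM, differed by 0.12 in WT (adjusted p = 0.389) and by -0.06 in OX3 (adjusted p = 0.691), short of the threshold in both. bZIP24, the other member of this group of factors, fell by 0.81 in WT and fell by 0.57 in OX3 on the log2 scale.

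MTP2 (AT3G61940, chr3:22937170-22938577, plus strand), listed in the table as MTPA1, lay near the detection limit. It had 2, 1 and 7 reads in WT at normal phosphate and 1, 8 and 0 reads at low phosphate. OX3 had 0, 2 and 7 reads at normal and 6, 6 and 7 reads at low phosphate. With 0 to 8 reads a library, all 4 groups overlapped their neighbours in level. By limma voom on the recovered reads without a filter, low minus normal phosphate was -0.67 in WT (adjusted p = 0.628) and 1.73 in OX3 (adjusted p = 0.136) on the log2 scale, and OX3 minus WT at low phosphate was 1.90 (adjusted p = 0.386), so no difference was detectable at this depth.

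Few of these genes were called between OX3 and WT. At normal phosphate 1 of the 9 tested members, HMA4, was lower in OX3 by limma, beside 1.73% of all genes called lower and 3.1% called in either direction. HMA4 averaged 35.6 ± 3.57 RPKM in WT and 27.3 ± 2.33 RPKM in OX3 (SD, n = 3), with every OX3 library below every WT library. The log2 difference was -0.37 ± 0.08 (adjusted p = 0.0359). That call was lost without WT normal replicate 3 (adjusted p = 0.115) or 4 (0.16), without OX3 normal replicate 3 (0.154) or 4 (0.12), with a replicate block (0.0677) and with no filter (0.0674), while the difference stayed between -0.45 and -0.31 without any 1 library. ZIP3 in OX3 was also below WT in all libraries at normal phosphate, at 122 ± 2.28 against 141 ± 11.05 RPKM, but the log2 difference of -0.20 missed the threshold (adjusted p = 0.129). A lack of overlap of this kind, in either direction, held for 2 of the 9 members, both lower in OX3, and for 32.8% of all tested genes (17.7% higher, 15.1% lower). ZIP5 was lower in OX3 by a log2 difference of -0.30 (limma adjusted p = 0.131). At an unadjusted p under 0.05 lay HMA4, ZIP3 and ZIP5, beside 4559 of all tested genes. The estimates of the 9 members ran from -0.37 to -0.02, all below 0. The interval of HMA2 was wide, from -0.77 to 0.43. This comparison and that of low with normal phosphate in OX3 share the OX3 libraries at normal phosphate. The photosynthesis markers given above differed between the same groups, and their part in the HMA4 difference was not tested.

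At low phosphate 0 of the 9 members was called between OX3 and WT by limma or by limma voom on recovered reads. Over all genes limma called 0.0423% (0.0159% higher, 0.0264% lower). At an unadjusted p under 0.05 by limma there were 0 members and 2787 of all 18910 tested genes. The largest difference in size was that of ZIP1, 0.17 with a 95% interval of -0.17 to 0.52. HMA2 had the widest interval, -0.74 to 0.46, and bZIP19 the narrowest, -0.18 to 0.10, so differences within these intervals cannot be told from 0. ZIP1 alone had groups without overlap, higher in OX3, as had 7.13% of all genes higher, 9.95% lower and 17.1% in all. For the difference between the lines in the response to low phosphate, 0 of 9 members and 0.0% of all genes were called by limma, and again 0 by limma voom. At an unadjusted p under 0.05 there were 0 members and 1351 of all genes.

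The group means of the 9 tested members were ordered by phosphate, with both groups of 1 level above both of the other. For ZIP5, ZIP9 and HMA4 the libraries of the 2 levels still overlapped between the lines. MTP2, near the detection limit, had no such order. For ZIP2, ZIP4, HMA2 and bZIP19 both normal-phosphate groups ranked above both low ones without overlap between the levels, and WT and OX3 overlapped at each level. For ZIP1 the order was OX3 low, WT low, WT normal and OX3 normal, and the lowest OX3 library at low phosphate, 50.01 RPKM, was just above the highest WT library, 49.7 RPKM. HMA4 ran from WT low through OX3 low and WT normal to OX3 normal, and of these neighbours only the last pair did not overlap.

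Among the 6 libraries at normal phosphate, HMA2, ZIP1 and ZIP4 ranked the libraries alike. OX3 replicate 2 was lowest in all 3 genes, followed by WT replicate 3, WT replicate 2, OX3 replicate 3, OX3 replicate 4 and WT replicate 4. The same order held for 14 of all 18910 tested genes, these 3 included, and for 0 of the further zinc genes listed below. Because this order was noticed in the values, the correlations over the same 6 libraries describe it and carry no test. Pearson's r was 0.98 between HMA2 and ZIP1, 0.96 between HMA2 and ZIP4 and 0.90 between ZIP1 and ZIP4. By r with HMA2, 1236 genes with an SD of at least 0.25 on the log2 scale over these libraries were ranked. ZIP1 held rank 1 and ZIP4 rank 4, with MIR834A and CYP705A12, which are outside the zinc lists, between them. Without the 2 libraries farthest from the median of the ZIP gene, r with HMA2 was 0.98 for ZIP1 and 0.85 for ZIP4. With each line's mean taken away, it was 0.98 and 0.97. ZIP5 varied partly alike, with an r of 0.77 to HMA2, of 0.70 to ZIP1 and of 0.63 to ZIP4, or of 0.93, 0.93 and 0.87 with each line's mean taken away. Without the 2 libraries farthest from its own median, the r of ZIP5 to HMA2 was -0.05.

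At low phosphate ZIP1 was higher and HMA2 and ZIP4 lower than at normal phosphate, as given above, and over the 6 low-phosphate libraries r with HMA2 was -0.06 for ZIP1 and 0.39 for ZIP4. HMA2 spread 3.06-fold over the normal libraries and 1.601-fold over the low ones, with an SD of 0.54 and 0.17 on the log2 scale against medians of 0.11 and 0.12 over all tested genes.

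**Figure D4:**
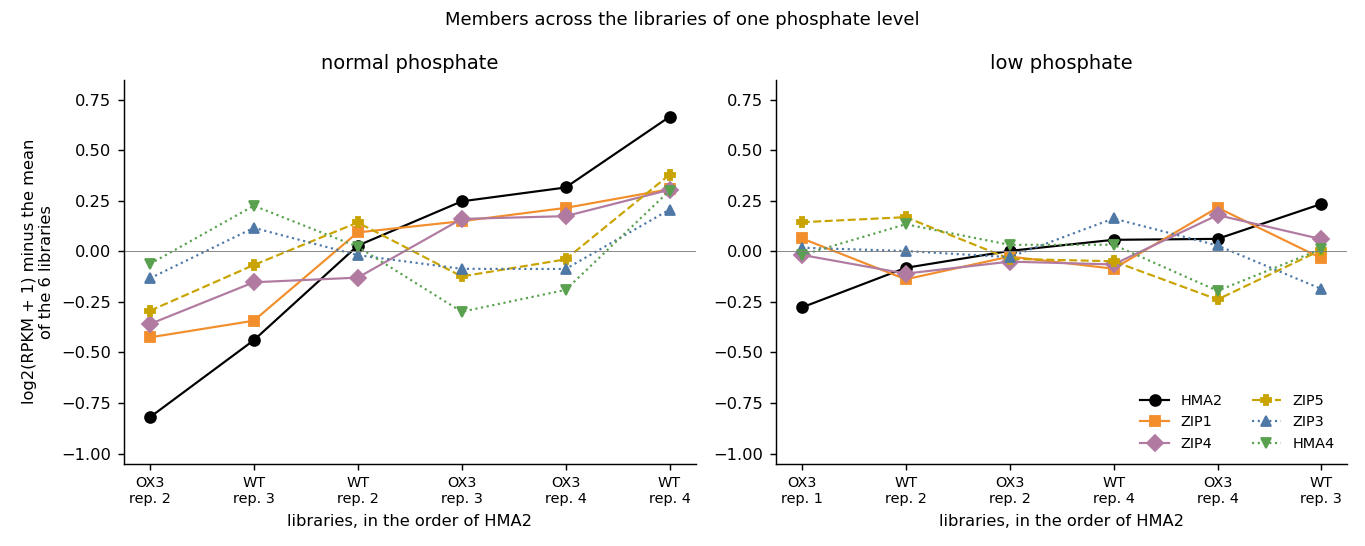
Log2(RPKM + 1) of 6 zinc transport genes minus each gene's mean over the 6 libraries (vertical axis), with libraries in the order of HMA2 at normal (left) and low phosphate (right). HMA2, ZIP1 and ZIP4 share 1 order at left, with r of 0.98 and 0.96 to HMA2; ZIP5 (dashed) follows it in part, with an r of 0.77, and ZIP3 and HMA4 (dotted) have other orders.

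Outside the zinc lists, the genes most like each member over the 12 libraries were taken by Pearson's r, as a description. For ZIP4 and HMA2 they were the same pair, AT3G59930 and AT4G11393, both annotated as defensin-like proteins, with r of 0.99 and 0.99 for ZIP4 and 0.97 and 0.97 for HMA2. AT4G11393 averaged 66.8 RPKM in WT at normal and 0.959 RPKM at low phosphate, and AT3G59930 averaged 670 and 167 RPKM. Neither AT3G59930 nor HMA2 holds a full ZDRE in the window searched, and the core TGNCGACA lies in AT3G59930 but not in HMA2. AT4G11393 carries a full ZDRE, 139 bases before its start, which is printed with the element in capitals because ZIP4 carries it too.
AT4G11393 (chr4:6932170-6932199, plus strand): atggacatatATGTCGACATgcaaaattaa
The closest to ZIP2 were the receptor-like kinase gene AT1G64210 and the sulfate transporter gene AT1G77990 (r = 1.00 for each). For ZIP3 they were AT5G50760, annotated as SAUR-like, and AT3G18560 (1.00 each), and for ZIP1 the metacaspase AMC7 (0.97) and MSRB8 (0.97), a methionine sulfoxide reductase. ZIP5 was closest to the efflux gene DTX6 (0.98) and the lipoxygenase LOX1 (0.97), HMA4 to emb1579 and the kinase gene AT3G25840 (0.98 each), and bZIP19 to the kinase gene AT1G51850 and the carbonic anhydrase BCA4 (0.99 each). ZIP9 had the loosest neighbours, NPF1.3 and AT2G39650 (0.90 each). The step between the 2 phosphate levels enters each of these r values.

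Further genes of zinc and metal handling were counted by lists. Of 43 genes 35 were tested, and at low phosphate 13 rose and 13 fell in WT, 12 and 12 in OX3, with median log2 differences of 0.08 and 0.07. Over all tested genes 24.3% rose and 21.6% fell in WT, 23.3% and 23.8% in OX3, with medians of 0.02 and -0.02. The counts of single lists below rest on 2 to 12 genes each, to be read against these shares, and nothing particular to a list is drawn from them. Of the other ZIP family genes 6 were tested, and 2 rose and 2 fell in WT, 2 and 1 in OX3. ZIP12, a known bZIP19 target with a ZDRE, had no read in any WT library at normal phosphate and 4.89, 5.13 and 3.96 RPKM at low phosphate. Against a floor of 3 reads over the group this was at least 150-fold higher (adjusted p = 1.36e-09). The iron transporter IRT1 had the reverse pattern, with 4.29, 5.02 and 2.24 RPKM in WT at normal phosphate and no read at low phosphate in either line, at least 118-fold lower in WT and at least 126-fold lower in OX3 by the same floor. IRT2 rose 6.39-fold in WT and 4.01-fold in OX3, and ZIP6 fell by 0.39 on the log2 scale in WT (adjusted p = 0.00237).

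**Figure D5:**
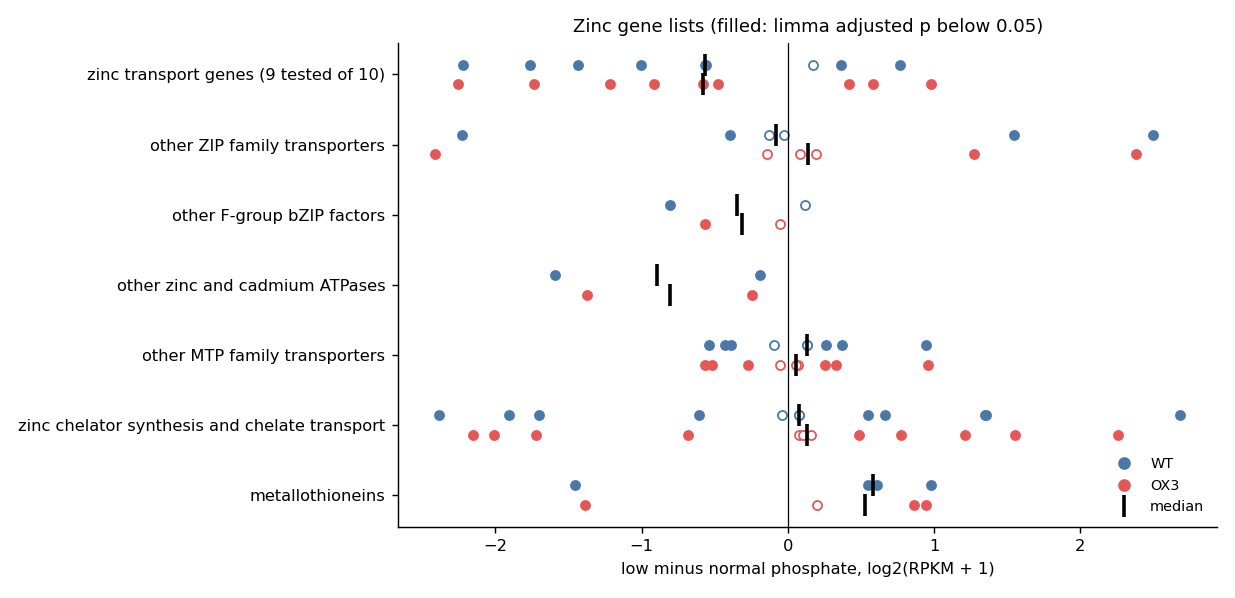
Low minus normal phosphate on the log2(RPKM + 1) scale (horizontal axis) for each tested gene of the zinc lists, WT in blue and OX3 in red; filled points have an adjusted p below 0.05 and black bars are list medians. The zinc transport genes have medians of -0.57 and -0.58, and the chelator list spreads from -2.39 to 2.68 in WT.

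Both other zinc and cadmium ATPases fell. HMA3 went from 4.02 ± 0.32 to 0.671 ± 0.193 RPKM in WT (SD, n = 3, log2 difference -1.59, adjusted p = 8.95e-08), and HMA1 of the chloroplast fell by 0.19. Of 9 tested MTP genes 3 rose and 3 fell in each line, beside 24.3% and 21.6% of all genes in WT and 23.3% and 23.8% in OX3, with list medians of 0.13 and 0.06. On the log2 scale MTP9 rose by 0.94 in WT and 0.96 in OX3, MTP7 rose by 0.37 and 0.33, and MTP11, a manganese transporter, fell by 0.43 and fell by 0.57. MTP3, which moves zinc into vacuoles, fell by 0.54 in WT and fell by 0.52 in OX3.

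Of 12 tested chelator genes 5 rose and 4 fell in each line, beside 24.3% and 21.6% of all genes in WT and 23.3% and 23.8% in OX3, with list medians of 0.08 and 0.13. Among the nicotianamine synthases, whose product binds zinc and iron, NAS1 fell by 2.39 and NAS4 fell by 1.90 in WT, and in OX3 they fell by 2.15 and fell by 2.01. NAS3 came up from 0.0116 to 5.56 RPKM in WT and from 0.0726 to 4.14 RPKM in OX3 (adjusted p = 9.33e-10 and 5.73e-09). ZIF1, which brings nicotianamine into vacuoles, rose by 1.35 in WT, and FRD3, a citrate exporter of the stele, rose by 1.55 in OX3. Of 4 tested metallothioneins 3 rose in WT and 2 in OX3, and MT1C fell by 1.46 and fell by 1.39.

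Known targets of bZIP19 and bZIP23 outside the 10 members were thus mixed. Of 4 tested, ZIP12 rose and NAS4 fell in both lines. IRT3, with 2 ZDREs and 105 ± 5.73 RPKM in WT at normal phosphate, stood at 104 ± 6.46 RPKM at low phosphate (adjusted p = 0.841). NAS2 was at 86.6 ± 3.69 and 84.3 ± 8.07 RPKM (adjusted p = 0.694). Between OX3 and WT, 0 of the 35 genes was called at either phosphate level by limma. Over all tested genes the shares were also small, 3.1% at normal and 0.0423% at low phosphate.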

How the data were processed

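RPKM values for 12 root libraries and 25941 genes came from the authors' deposited table. HTSeq 0.6.0 and the TAIR10 build are named per the submitters' processing notes; the aligner and strand setting were not given. RPKM times exon length fell on whole reads (within 0.01) for 99.45% of genes matched to TAIR10.1, which gave read totals and, by limma voom, 8714 calls in WT and 8940 in OX3 for phosphate. Tests used limma 3.58.1 (R 4.3.3) on log2(RPKM + 1) with a mean-variance trend, in 1 fit of the 4 groups, over 18910 genes averaging 1 RPKM or more. P-values are two-sided, Benjamini-Hochberg adjusted over these genes and called below 0.05. The fit was tested on simulated data. Intervals are 95%; the floor of 3 reads covers counting error only.

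Nothing in the labels ties replicates to separate plants, so p-values describe spread among these libraries, which could be technical. All 10 members are described. From each wider list up to 4 genes with the smallest adjusted p were named in either line, with bZIP23 besides, and the 2 most similar genes per member. Members and lists were chosen with earlier results of these data known, and the motif window was set after the positions of matches were seen. ZIP8, ZIP10 and MT1A are absent from the authors' RPKM values, so their levels were not analysed. Alternatives were median-ratio scaling, no filter, a pseudocount of 0.1, a replicate block, only the groups compared, limma voom on recovered reads, and leaving out each library.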

Additional observations from a re-analysis of the deposited data

How the results depend on the processing

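The 9 tested members kept their direction at low phosphate in both lines under every alternative and every left-out library, and 6 to 8 stayed called in WT and 8 or 9 in OX3; the calls lost were those of ZIP5 and ZIP9 given above. With the replicate number as a block, 8 members were called in WT and 8 in OX3, 1 fewer. Same-numbered libraries of different groups deviated with correlations of -0.14 to 0.12, so no strong shared deviation was visible. This check cannot tell whether same-numbered libraries were grown or processed together, and the main fit treats them as unpaired.

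OX3 against WT depended most on the settings. At normal phosphate the 587 genes called became 152 with no filter, 225 with the replicate block, 1087 with only the groups compared and 1132 with limma voom on reads, and from 8 to 1057 without 1 library. The member count of 1 became 0 with no filter and 0 with the block, and 0 to 1 without 1 library. At low phosphate 8 genes became 5 with median-ratio scaling and 2 with only the groups compared, and 3 to 196 without 1 library, 196 being without WT low replicate 2. For the difference in response, 0 to 1 gene was called. Differences that turned sign were all uncalled. The largest reversed value in size was -0.3384, for the difference in response of HMA2 without OX3 normal replicate 2. ZIP3 at low phosphate was -0.0171 with the block, and for the difference in response HMA2 was -0.0153 by voom and bZIP19 0.018 with median-ratio scaling. Without 1 library, OX3 minus WT at normal phosphate ran from -0.2212 to 0.1628 for ZIP1, -0.1069 to 0.1601 for ZIP4, -0.359 to 0.0161 for ZIP9, -0.433 to 0.197 for HMA2 and -0.0693 to 0.0055 for bZIP19. At low phosphate it ran from -0.1757 to 0.0408 for ZIP2, -0.0761 to 0.0985 for ZIP3, -0.1801 to 0.0111 for ZIP5, -0.139 to 0.0294 for ZIP9 and -0.1031 to 0.0119 for bZIP19. The difference in response ran from -0.1123 to 0.1042 for ZIP2, -0.0849 to 0.1821 for ZIP4, -0.0779 to 0.2971 for ZIP9, -0.3384 to 0.2916 for HMA2 and -0.0771 to 0.038 for bZIP19. The causes were not tested. MTP2 rests on 0 to 8 reads a library and ZIP9 on 28 to 99.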

Other observations

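Genes with a full ZDRE were counted at low phosphate in all. Of 144 genes with one in the window, 102 were tested, a set added after values were seen. In WT 25 rose and 24 fell (24.5% and 23.5%, beside 24.3% and 21.6% of all tested genes), with a median log2 difference of 0.00. In OX3 26 rose and 23 fell (25.5% and 22.5%, beside 23.3% and 23.8% of all tested genes). Outside the members, 24 of 99 rose and 22 fell in WT. At the extremes in WT lay AT4G11393, at -5.00, and NAS3, at 2.68.

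AT2G36255, another defensin-like gene, was picked out after its values were seen, since it was among the 6 genes nearest to HMA2 at normal phosphate (r = 0.94). It measured 677, 730 and 1283 RPKM in WT at normal phosphate and 7.67, 12.2 and 17.6 RPKM at low phosphate. OX3 measured 450, 914 and 1000.3 RPKM at normal and 8.62, 6.72 and 9.27 RPKM at low phosphate. The log2 difference was -6.06 ± 0.31 in WT (SE, limma adjusted p = 1.18e-09) and -6.35 ± 0.31 in OX3 (adjusted p = 7.38e-10). Its window holds the core TGNCGACA, 104 bases before the start, but no full ZDRE.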
